A study of Mus musculus with 2 samples.

Results

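The genes described here are 4 cytosolic tRNA synthetase genes other than Gars that are linked to inherited neuropathy in humans: Aars, Hars, Wars and Yars. They were taken by Ensembl identifier, with the symbols given for those identifiers, and make up 4 of the 12530 mouse genes listed in the series. Their identifiers are ENSMUSG00000031960 (Aars), ENSMUSG00000001380 (Hars), ENSMUSG00000021266 (Wars) and ENSMUSG00000028811 (Yars). All 4 were listed in both libraries and passed the minimum of 100 reads set below. Ribosome profiling, which sequences the mRNA fragments shielded by ribosomes from RNase I, was done on mouse spinal cord. The first library came from mice with 1 C201R allele of Gars (genotype GarsC201R/+, heterozygous), and the other came from wild-type mice. Spinal cord lysates of 3 animals were pooled for each library, so the values hold no variation between animals. The age and strain of the animals were not given in the labels used here, and no other allele or treatment was named for either genotype.

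Aminoacyl-tRNA synthetases attach each amino acid to its own tRNAs, which carry it to the ribosome. Gars encodes glycyl-tRNA synthetase. Dominant mutations of the human genes for glycyl-, alanyl-, histidyl-, tryptophanyl- and tyrosyl-tRNA synthetase cause peripheral neuropathies in which the longest axons degenerate. Forms of Charcot-Marie-Tooth disease are among them. Aars encodes the alanyl enzyme, which also has an editing activity that removes wrongly attached amino acids. Hars encodes the histidyl enzyme, the Jo-1 autoantigen of human myositis. Wars encodes the tryptophanyl enzyme, whose human gene is induced by interferon gamma. Yars encodes the tyrosyl enzyme.

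The RefSeq table of promoters, which runs from 250 bases before to 50 after the transcription start it uses for a gene, matched 2 of the 4 genes, Aars and Yars, with 1 entry each. Hars and Wars had no entry. The windows below are shown because they hold the core of the C/EBP-ATF response element, the letters TGATGNAA, a sequence through which the transcription factor ATF4 acts on several synthetase genes. It was searched on both strands, and its matches are in capitals. On the reverse strand a match reads as its complement from the other end. Each window is on the plus strand of GRCm38.p6 and ends at most 30 bases after the start used by the promoter table, which is 111033842 for Aars and 129189903 for Yars. These starts lie 6064 bases (Aars) and 169 bases (Yars) inside the gene spans of the same annotation, given in the next paragraph.
Aars, chr8:111033670-111033797: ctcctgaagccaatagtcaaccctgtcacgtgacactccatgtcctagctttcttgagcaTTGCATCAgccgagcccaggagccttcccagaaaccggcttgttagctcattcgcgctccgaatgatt
Aars, chr8:111033791-111033871: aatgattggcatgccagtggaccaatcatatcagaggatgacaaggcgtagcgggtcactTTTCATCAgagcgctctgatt
Yars, chr4:129189846-129189932: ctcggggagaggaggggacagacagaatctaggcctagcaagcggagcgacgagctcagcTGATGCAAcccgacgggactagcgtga
The Aars promoter held TGATGCAA on the reverse strand at bases -112 to -105 from the promoter table's start and TGATGAAA on the reverse strand at bases 10 to 17. The Yars promoter held TGATGCAA on the forward strand at bases 4 to 11. Of all 32851 promoters of this length in the table, 1304 (3.97%) held the core. The cAMP response element TGACGTCA was in neither promoter and in 588 (1.79%) of all promoters. These matches describe the letters of the windows, and no binding was measured.

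In the RefSeq annotation of GRCm38.p6, Aars spans 111027778 to 111055569 of chromosome 8, Hars 36766528 to 36783205 of chromosome 18, Wars 108860030 to 108894175 of chromosome 12 and Yars 129189734 to 129219240 of chromosome 4. The span of Hars shares 4 nt with that of Hars2, which encodes the mitochondrial histidyl enzyme and is related to Hars in sequence. The span of Aars shares 3974 nt with that of Ddx19b. That of Wars shares 24 nt with Wdr25 and holds a small nuclear RNA gene, Gm22079, and that of Yars overlaps no other gene of the table. The part of each gene that was counted, the strand setting and the handling of reads with several matches were not given, so reads from overlapping or related genes could not be told from the members' own.

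The gene reads summed to 3491159 in the GarsC201R/+ library and to 7770935 in the wild-type library, a depth that was 2.23-fold greater in the wild type. Levels between genes are given as the deposited RPKM, which divides reads by gene length and by the library total. Comparisons between the libraries rest on the reads after TMM scaling, a scaling to library size that is robust to a few very abundant genes. Each genotype has 1 library, so differences could not be checked in replicates and carry no p-value. The intervals are exact 95% counting intervals, which leave out all variation between animals and libraries. The level of Gars, markers of spinal cord cell types and other synthetase genes are not analysed here, because the tables and the reference table do not pair other identifiers with symbols. In whole tissue, fewer cells that express a gene and less RNA per cell cannot be told apart, and with no RNA library a level of footprints cannot be split into mRNA amount and translation.

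All 4 genes lay well above the middle of each library. Their RPKM ran between 74.0 and 91.8 in the GarsC201R/+ library and between 67.4 and 97.6 in the wild-type library, against a median gene of 8.63 in the GarsC201R/+ and 8.40 in the wild-type library. By RPKM they ranked between 687 (Wars) and 878 (Hars) of 12530 genes in the GarsC201R/+ library, and between 637 (Hars) and 986 (Yars) in the wild-type library. Together they took 3957 reads, or 0.113% of the gene reads (Wilson interval 0.110% to 0.117%), in the GarsC201R/+ library and 8050 reads, or 0.104% (0.101% to 0.106%), in the wild-type library. The length behind the RPKM was 5750 nt for Aars, 1989 nt for Hars, 2831 nt for Wars and 2909 nt for Yars. Over all genes 33.7% of these lengths were multiples of 3, so they are not coding lengths, while ribosome footprints fall mainly on coding sequence, so a long untranslated part lowers a gene's RPKM in both libraries alike.

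Hars was the member with a ratio below equal levels. Its reads numbered 518 (Poisson interval 474 to 565) in the GarsC201R/+ library and 1512 (1437 to 1590) in the wild-type library, which is 74.0 RPKM in GarsC201R/+ and 97.6 RPKM in wild type. At the wild-type level, after TMM scaling, 705 reads would have been counted in the GarsC201R/+ library. The log2 ratio of GarsC201R/+ over wild type was -0.44 (-0.59 to -0.30), a level 0.735 times that of the wild type (0.664 to 0.812).

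Wars, the tryptophanyl enzyme gene, had the highest ratio of the 4. It had 915 reads (857 to 976) in the GarsC201R/+ library and 1628 reads (1550 to 1709) in the wild-type library, or 91.8 RPKM in GarsC201R/+ and 73.8 RPKM in wild type. The wild-type level corresponded to 759 reads in the GarsC201R/+ library, 156 fewer than were counted. Its log2 ratio was 0.27 (0.15 to 0.39), or 1.21-fold (1.11 to 1.31).

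Aars and Yars, the alanyl and tyrosyl enzyme genes, had smaller positive ratios. Aars had 1733 reads (1652 to 1817) in the GarsC201R/+ library and 3383 reads (3270 to 3499) in the wild-type library, or 85.6 RPKM in GarsC201R/+ and 75.5 RPKM in wild type. Its log2 ratio was 0.14 (0.051 to 0.22), or 1.10-fold (1.04 to 1.16). This gene had the most reads of the 4 and so the narrowest interval. Yars had 791 reads (737 to 848) in the GarsC201R/+ library and 1527 reads (1451 to 1606) in the wild-type library, or 77.2 RPKM in GarsC201R/+ and 67.4 RPKM in wild type. Its log2 ratio was 0.15 (0.026 to 0.28), or 1.11-fold (1.02 to 1.21), and the lower bound of its interval was the closest to equal levels among the 4 genes. The wild-type library was also thinned, in a single random draw, to the depth of the GarsC201R/+ library. After that draw the log2 ratio of Yars was 0.086 (-0.062 to 0.23), an interval that includes equal levels.

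**Figure D1:**
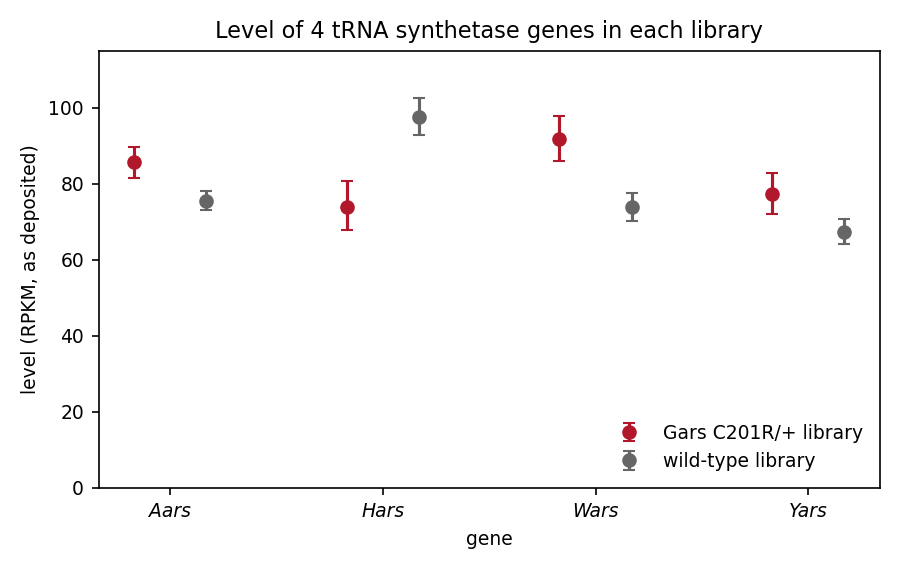
Level in RPKM as deposited (vertical axis) of Aars, Hars, Wars and Yars (horizontal axis) in the GarsC201R/+ library (red, left of each pair) and the wild-type library (grey, right). Bars are exact 95% Poisson intervals of the reads, and each point is 1 library of 3 pooled animals. Hars is at 74.0 in GarsC201R/+ and 97.6 in wild type, while the other 3 genes are higher in GarsC201R/+ than in wild type.

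To be called higher or lower, a gene needed at least 100 reads over both libraries, a 95% counting interval that left out equal levels and a change of 1.5-fold or more. None of the 4 members was called (0 higher and 0 lower), against 19.3% of the 9726 genes tested, with 8.14% of the genes tested called higher and 11.2% called lower. A smaller share was called in the groups by read number described below, 7.71% for Aars, Wars and Yars and 8.74% for Hars. By the interval alone, with no fold limit, 3 members were higher, against 23.7% of the genes tested, and 1 was lower, against 28.2%. These shares cover all genes with 100 or more reads, while counting intervals narrow as reads rise. The share by the interval alone was not computed within the groups by read number, so these values do not show an excess among the members. With the wild-type library thinned, 2 members were higher by the interval alone, Aars and Wars, and 1 was lower. Of the 8449 genes then tested, 1865 were higher and 2198 lower. An interval that excludes equal levels was thus common among the genes tested. The median log2 ratio of the 4 members was 0.14 (range -0.44 to 0.27), and that of all genes tested was -0.034.

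The spread between the libraries within groups of genes ordered by reads was wider than the counting intervals of the members. To show this, the tested genes were ordered by reads and cut into 10 groups of equal size. Aars, Wars and Yars fell in the group with the most reads (973 genes with 2152 to 115809 reads over both libraries). In this group the log2 ratio had a median of -0.081 and a robust SD of 0.32. Their ratios stood at the 75.1, 86.1 and 76.6 percentiles of that group, in the order Aars, Wars, Yars. The group is wide in reads, and Wars (2543 reads) and Yars (2318 reads) lie near its lower end, so many of its genes have far more reads. Hars, with 2030 reads in both libraries together, fell in the next group (972 genes with 1213 to 2151 reads), with a median of -0.048 and a robust SD of 0.34, and stood at its 13.0 percentile. In that group 246 genes (25.3%), Hars among them, lay at least as far from the median as Hars did. For the other members the share of their group at least as far from its median was 28.8% for Wars, 47.2% for Yars and 50.2% for Aars. Within 0.05 of a member's log2 ratio lay 796 other tested genes for Aars, 526 for Hars, 692 for Wars and 792 for Yars. With 2 libraries a gene has a single ratio, so no gene was named for a like pattern.

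**Figure D2:**
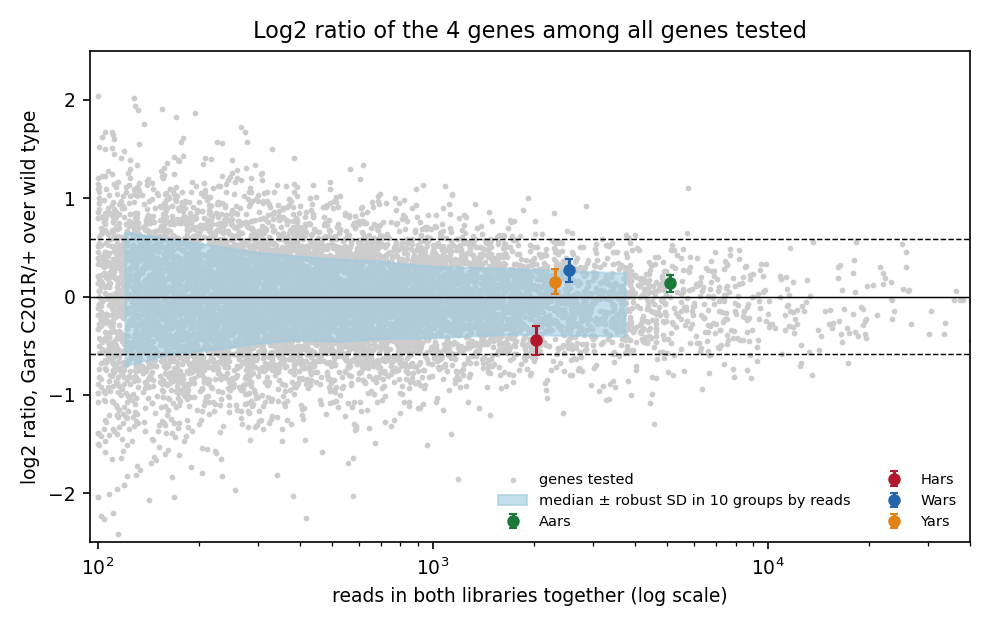
Log2 ratio of GarsC201R/+ over wild type (vertical axis) against reads in both libraries together (horizontal axis, log scale) for the genes tested (grey points), with 95% counting intervals for the 4 members (coloured). The blue band is the median ± robust SD in each of the 10 groups of genes by reads, and dashed lines mark 1.5-fold. The axes leave out 11 genes by ratio and 15 by reads. Wars, Aars and Yars lie above 0 and Hars lies below it at -0.44, and all 4 points lie between the dashed lines.

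The ratio of Hars differed from that of each other member by more than counting error. The ratio of reads of one member to another within a library needs no scaling of the libraries, so all 6 pairs were compared in this way. Per Hars read there were 3.35 Aars reads in the GarsC201R/+ library and 2.24 in the wild-type library, a difference of log2 ratios of 0.58 (0.41 to 0.75). The ratio of Hars to Wars reads was 0.566 in GarsC201R/+ and 0.929 in wild type, a difference of -0.71 (-0.90 to -0.53). The ratio of Hars to Yars reads was 0.655 in GarsC201R/+ and 0.990 in wild type, a difference of -0.60 (-0.79 to -0.40). These 3 pairs share the Hars reads and are not separate observations. The 3 pairs without Hars had intervals that included no difference. These were Aars over Wars at -0.13 (-0.28 to 0.012), Aars over Yars at -0.016 (-0.17 to 0.14) and Wars over Yars at 0.12 (-0.055 to 0.29), which does not show that those genes have equal ratios. The robust SDs of the read groups, combined for a pair of genes as if independent, came to 0.47 for each pair with Hars. The differences of 0.58, -0.71 and -0.60 were larger than this in size, and none reached 2 times it.

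**Figure D3:**
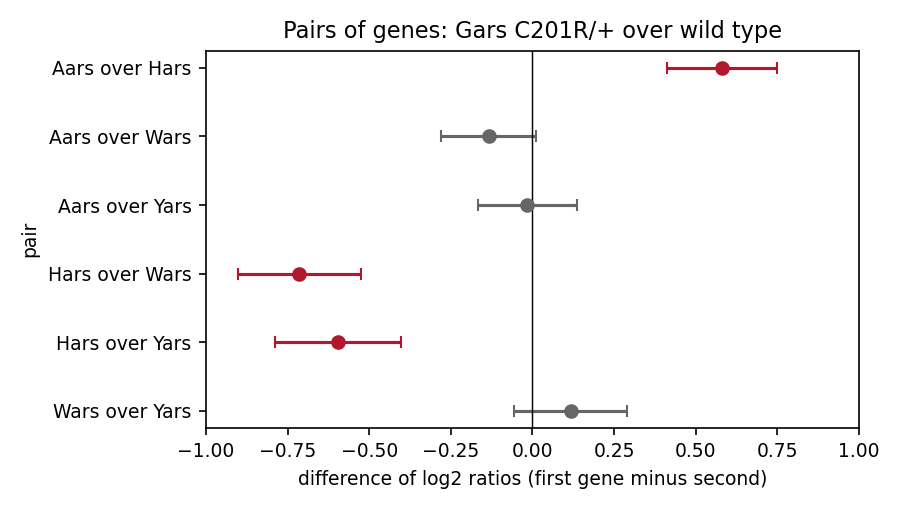
Difference of the log2 ratios (GarsC201R/+ over wild type) of the first gene minus the second (horizontal axis) for the 6 pairs of members (vertical axis), with exact conditional 95% counting intervals. Pairs with Hars are red. Their intervals exclude 0, with points at 0.58, -0.71 and -0.60, and those of the other 3 pairs include 0.

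By RPKM, Hars was the lowest of the 4 genes in the GarsC201R/+ library and the highest in the wild-type library. In the GarsC201R/+ library the order was Wars, Aars, Yars and Hars. In the wild-type library it was Hars, Aars, Wars and Yars. Among neighbours in the GarsC201R/+ order, Wars over Aars (1.07-fold, 0.989 to 1.16) and Yars over Hars (1.04-fold, 0.933 to 1.17) did not differ beyond counting error, while Aars exceeded Yars by 1.11-fold (1.02 to 1.21). In the wild-type order, Hars exceeded Aars by 1.29-fold (1.22 to 1.37) and Wars exceeded Yars by 1.10-fold (1.02 to 1.18), while Aars over Wars (1.02-fold, 0.964 to 1.09) did not differ beyond counting error. The highest member was 1.24-fold above the lowest in the GarsC201R/+ library and 1.45-fold above it in the wild-type library. The lengths that enter these levels are the same in both libraries, so they set the order within a library and not its difference between libraries.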

How the data were processed

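Read counts and RPKM values per gene were deposited by the authors for 1 library per genotype, per the file headers. The counts were used as deposited. The RPKM values, per the file headers reads scaled to gene length and library total, were used for levels between genes. Gene lengths were recovered from both columns. Per the submitters' processing notes the build was GRCm38 and the tools included HTSeq 0.9.1 and Bowtie 1.2.2, with no settings. The 18 ERCC spike-ins were set apart from the 12530 genes. TMM factors came from edgeR 4.0.16 (R 4.3.3), and log2 ratios have a prior count of 0.5. Ratio intervals are Clopper-Pearson, those of pairs are conditional odds ratio intervals, and all are at 95% and cover counting error only. They treat each read as an independent molecule, which may not hold, and are too narrow where it does not. Robust SD is the scaled median absolute deviation. No model or p-value was possible with 1 library per genotype. The rule for calls was tested on simulated reads with set fold changes and counting error, and no other spread between libraries. That test cannot show how often such spread leads to calls. The alternatives were DESeq2 1.42.0, total, upper-quartile and spike-in scaling, thinning, other prior counts, read minimums, intervals and fold limits, and the deposited RPKM. The members, lists and tests were chosen with earlier results of these data known. The rule for named genes was the 4 members and fixed lists of synthetase, ATF4-target and cell type genes. Since 0 of the identifiers matched the 49997 genes of the RefSeq table by Ensembl identifier, those lists are not analysed here. Protein sequences and glycine content were not analysed here. Intervals were computed with scipy 1.17.1 and pandas 2.3.3 in Python 3.11.15, and plots with matplotlib 3.10.9.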

Additional observations from a re-analysis of the deposited data

How the results depend on the processing

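Under the 7 alternatives other than spike-in scaling, the log2 ratios (GarsC201R/+ over wild type) lay between 0.13 and 0.19 for Aars, -0.45 and -0.39 for Hars, 0.25 and 0.32 for Wars and 0.086 and 0.21 for Yars, and kept their direction. The thinned wild-type library, a single random draw, gave the lowest value for Yars, with an interval of -0.062 to 0.23. Scaling to the 22857 GarsC201R/+ and 520 wild-type spike-in reads shifts every gene by 1 common factor. It gave -6.42 for Aars, -7.00 for Hars, -6.29 for Wars and -6.41 for Yars, with all 4 members and all 9726 genes called lower and 0 higher, so directions here are relative to the gene reads. The labels do not say how spike-ins were added. Without a fold limit 3 members and 2309 genes were higher and 1 member and 2741 genes were lower. With thinning as well, chosen after seeing the data, these were 2 members and 1865 genes higher and 1 member and 2198 genes lower. These counts of genes were not matched to the members by reads. Thinning left 8449 genes tested, against 9726. No member was called under any other setting run. The number of genes called higher was 1321 of 12160 with a minimum of 20 reads and 1379 of 12530 with none, against 792 of 9726. The number called lower was 1353 under each of these minimums, against 1087. Requiring 500 reads left 158 higher and 348 lower of 4480 genes tested, and a 2-fold limit gave 166 higher and 267 lower, by construction. Under total-count scaling 952 genes were called higher and 919 lower, against 792 and 1087 under TMM. Depth limits the interval of Hars most, with 518 GarsC201R/+ reads. No paired analysis was possible because each genotype has 1 library, and for the same reason no replicate could be left out.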
